A study of Mus musculus with 4 samples.

Results

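The genes described here are 9 genes of the retinoic acid pathway, out of 55421 genes listed for each library, and they were found by matching the Ensembl identifiers of the count files to gene symbols. They encode enzymes that make retinoic acid (Aldh1a1, Aldh1a2 and Aldh1a3), proteins that carry retinoids (Rbp4, Crabp1 and Crabp2), nuclear receptors that retinoic acid binds (Rara and Rarb) and an enzyme that removes it (Cyp26b1). RNA was sequenced from prefrontal cortex (PFC) cells of newborn C57BL/6 mice of wild-type genotype (postnatal day 0), which had been dissociated and kept in culture for 10 days. The 2 libraries of the treated group came from cultures that received FGF2, a fibroblast growth factor, at 5 ng/mL, and the 2 libraries of the other group came from cultures without FGF2. All cultures grew in neurobasal medium with B27, GlutaMAX and antibiotics, and the meninges had been peeled off before the tissue was digested. The study compared these cultures to ask whether FGF2 acts on mouse cortical cells as it does on human fetal cortex.

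Retinoic acid is made from vitamin A in a short chain of steps. Retinol circulates bound to Rbp4, is oxidised to retinaldehyde by enzymes such as Rdh10, and is turned into retinoic acid by the Aldh1a enzymes. Inside the cell retinoic acid is held by Crabp1 and Crabp2, activates dimers of a retinoic acid receptor (RAR) and a retinoid X receptor (RXR) at target genes, and is removed by enzymes of the Cyp26 family. In the developing forebrain, Aldh1a2 is known from the meninges and Aldh1a3 from the lateral ganglionic eminence, the source of striatal neurons. The standard B27 supplement holds retinyl acetate, a form of vitamin A, but the sample descriptions do not list its contents.

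Counts on genes totalled between 9166432 and 10799886 per library, and a count of 0 leaves room for up to 3 counts, which is 0.278 to 0.327 CPM (counts scaled to the library total) and covers counting error only. All CPM below also carry the TMM adjustment of edgeR. The sample titles number the replicates without saying whether they are separate cultures, and the paper describes its samples other than GW11 and GW20 as technical replicates, so the p-values may measure technical spread only. All levels come from bulk RNA, in which fewer cells of a type and less RNA per cell cannot be told apart. Of the 17144 genes that passed the expression filter, 40.5% passed the threshold of 0.05 on the adjusted p (quasi-likelihood test of edgeR, adjusted over all genes tested). FGF2 cultures were higher for 20.7% and lower for 19.9% of the genes. Over all tested genes the median log2 fold change was -0.00082.

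A receptor and a degrading enzyme carry the best known retinoic acid response element in their promoters, and their sequences are shown because the levels of these genes are the common readout of retinoic acid in a cell. The element is a direct repeat of a 6-base half-site with a spacer of 5 bases. The promoters of RefSeq (GRCm38.p6, 250 bases before to 50 bases after each transcription start) were searched on both strands for pairs of half-sites in any combination. A half-site was read as AGGTCA or as the related GGGTCA with a G in front, and the forms with a second T, written AGTTCA or with a leading G as GGTTCA, were also taken. Such a pair was found for 31 of 27025 genes (0.115%), and among the 9 genes, of which 7 had a promoter entry, it was found for Rarb alone. Among 22 other genes of retinoid uptake and metabolism with an entry it was found for Cyp26a1 alone. The 250 bases before the start are given here 5′ to 3′ on the strand of the gene, with the half-sites in capitals. The Rarb stretch is chr14:16575477-16575726 on the minus strand and the Cyp26a1 stretch is chr19:37697558-37697807 on the plus strand.
Rarb: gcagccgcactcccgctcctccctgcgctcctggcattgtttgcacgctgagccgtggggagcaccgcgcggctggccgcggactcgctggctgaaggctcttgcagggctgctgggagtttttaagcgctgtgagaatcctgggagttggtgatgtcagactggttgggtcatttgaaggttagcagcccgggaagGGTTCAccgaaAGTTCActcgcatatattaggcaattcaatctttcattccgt
Cyp26a1: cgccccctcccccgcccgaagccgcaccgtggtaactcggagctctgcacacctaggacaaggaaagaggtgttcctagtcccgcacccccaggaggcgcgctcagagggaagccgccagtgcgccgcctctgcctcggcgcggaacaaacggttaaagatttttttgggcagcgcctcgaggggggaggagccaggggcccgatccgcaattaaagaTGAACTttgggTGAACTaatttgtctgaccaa
In Rarb the repeat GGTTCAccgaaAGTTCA lies 53 to 37 bases before the start. In Cyp26a1 the repeat lies 32 to 16 bases before the start on the opposite strand, where it reads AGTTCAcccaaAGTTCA. Pairs with a spacer of 2 bases or 1 base were found in 0.311% and 0.263% of all genes and in 0 of the 7 genes. A match describes letters in this window and is not evidence of binding.

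Of the 9 genes, 6 passed the expression filter, and 2 of these had a lower level with FGF2 at the adjusted threshold, against 19.9% of all tested genes. These 2 were Crabp1 and Aldh1a3. In contrast, Rara, Rarb and Cyp26b1 did not pass the threshold and had log2 fold changes between 0.02 and 0.15. Aldh1a1 did not pass either, and it entered the test only through its higher level without FGF2. Aldh1a2, Crabp2 and Rbp4 had at most 13 counts in any library and were left out by the filter. The plot of levels by library shows these 9 genes.

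**Figure D1:**
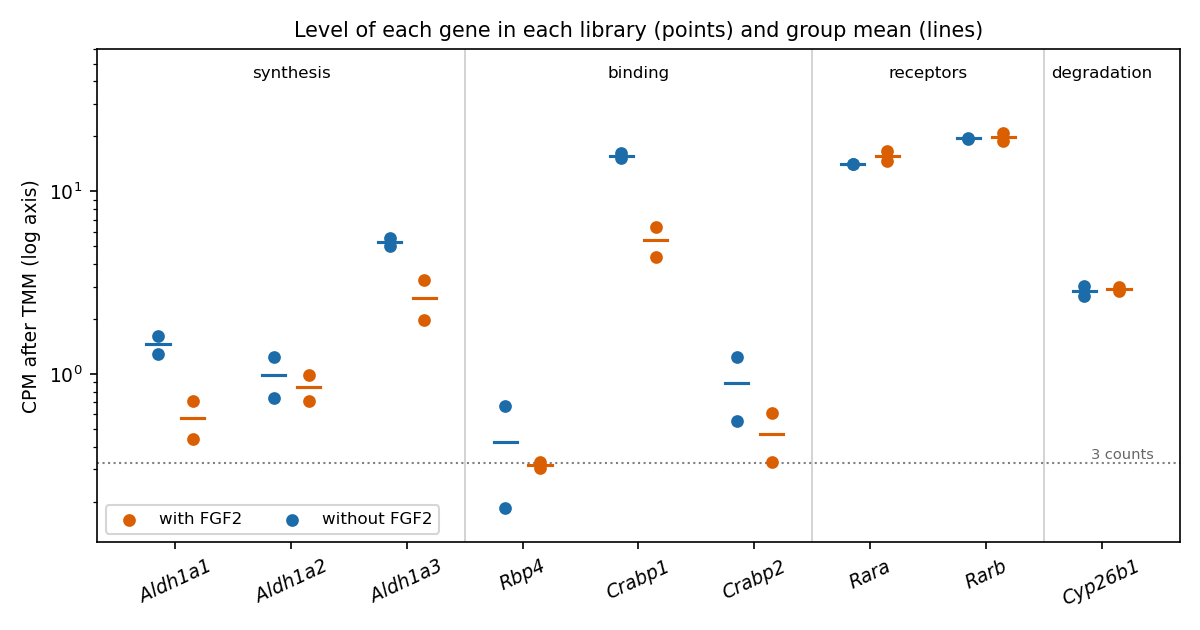
CPM after TMM scaling (log axis) of the 9 genes, with 1 point for each library, a line at the mean of the 2 libraries of a group, and a dotted line at the highest level that 3 counts stand for (0.327 CPM). Crabp1 and Aldh1a3 sit lower in both libraries with FGF2 (orange) than in both without (blue), Rarb and Cyp26b1 overlap, and Rbp4 lies around the dotted line.

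Retinaldehyde dehydrogenases were the first group examined. Aldh1a3 (mm10 chromosome 7, bases 66390890 to 66427517, minus strand) was measured at 1.98 and 3.25 CPM in replicates 1 and 2 with FGF2, and 5.04 and 5.54 CPM without FGF2. With FGF2 each library was below each of the other group. The mean was 2.62 ± 0.898 CPM with FGF2 and 5.29 ± 0.352 CPM without FGF2 (SD, n = 2), a log2 fold change of -1.0 (standard error 0.31, edgeR adjusted p = 0.0046). The call was lost with DESeq2 (adjusted p = 0.127), without replicate 1 with FGF2 (log2 fold change -0.70, edgeR adjusted p = 0.102) and without replicate 2 without FGF2 (-0.94, edgeR adjusted p = 0.0626), where the gene had 18 to 60 counts per library.

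Aldh1a1, which lies on chromosome 19 from 20492715 to 20643465, had 4 and 7 counts with FGF2 and 17 and 14 counts without FGF2. In CPM these are 0.441 and 0.712 with FGF2 and 1.62 and 1.29 without FGF2. The groups again did not overlap, which was the case in this direction for 33.4% of all tested genes. Only the libraries without FGF2 brought Aldh1a1 into the test, so this separation and the interval below are not independent of the filter. The log2 fold change was -1.31 with a standard error of 0.62 (95% interval -2.52 to -0.094), and it did not pass (edgeR adjusted p = 0.0788). The paralog Aldh1a7 shares 89.0% identity with Aldh1a1 over 2039 aligned transcript bases and had at most 1 count in any library.

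Aldh1a2, on chromosome 9 from 71215789 to 71296243, was at 9 and 7 counts with FGF2 and 13 and 8 counts without FGF2. These counts overlap between the groups. In the embryo this enzyme is known from the meninges. Tested without the expression filter, its log2 fold change was -0.21 with a standard error of 0.65 (edgeR adjusted p = 0.867), so a change was not detectable at this depth.

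Levels of different genes were compared per kb of exonic length. The summed level of the 3 Aldh1a genes was 0.957 and 1.16 CPM per kb with FGF2 and 1.97 and 1.79 CPM per kb without FGF2. The sum was lower in both libraries with FGF2. Aldh1a3 made up 44.9% and 60.6% of this sum with FGF2 and 55.6% and 67.1% without FGF2, and these shares overlap between the groups. Of the raw counts of the 3 genes, Aldh1a3 held 58.1% and 69.6% with FGF2 (exact binomial 95% intervals 39.1% to 75.5% and 54.2% to 82.3%) and 63.9% and 73.2% without FGF2 (52.6% to 74.1% and 62.2% to 82.4%). These intervals cover counting error only and take reads as independent molecules. No test of a shift between the enzymes was run.

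Cyp26b1, the degrading enzyme of the list, lies on chromosome 6 from 84571414 to 84593908. Its level was 2.98 and 2.85 CPM with FGF2 and 3.05 and 2.68 CPM without FGF2. The libraries of the groups overlap. The log2 fold change was 0.02 with a 95% interval from -0.69 to 0.74 (edgeR adjusted p = 0.968). Its paralogs Cyp26a1 and Cyp26c1, which also break down retinoic acid, were close to the limit, at 3 and 2 counts for Cyp26a1 with FGF2 and 2 and 2 without, and at 0 and 3 counts for Cyp26c1 with FGF2 and 1 and 6 without. Cyp26a1, whose promoter carries the repeat shown above, was therefore at or near the limit in both groups.

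Per kb, the summed Aldh1a level exceeded that of Cyp26b1 in every library. The log2 ratio of the summed Aldh1a level to Cyp26b1 was 0.78 and 1.13 with FGF2 and 1.79 and 1.84 without FGF2. The means were 0.96 ± 0.244 and 1.81 ± 0.034 (SD, n = 2). The ratio was smaller in both libraries with FGF2. With the length of the longest transcript in place of the union of exons, the mean ratios were 1.08 and 2.03. No test was run on these ratios, which compare RNA levels and not enzyme activity.

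**Figure D2:**
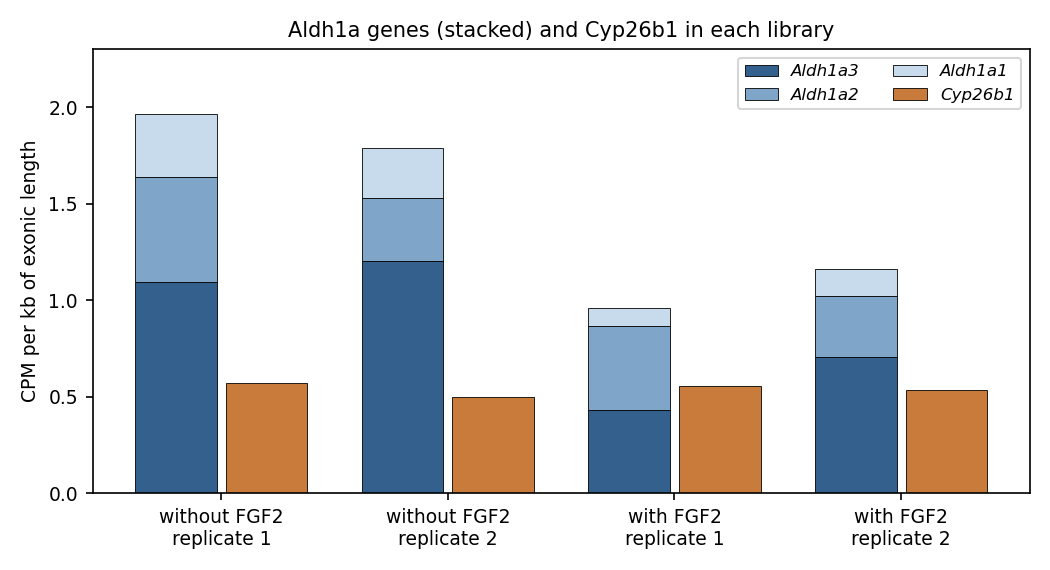
Level in CPM per kb of exonic length of Aldh1a1, Aldh1a2 and Aldh1a3 (stacked bars) and of Cyp26b1 (separate bar) in each of the 4 libraries. The stacked bars reach 1.97 and 1.79 without FGF2 and 0.957 and 1.16 with FGF2, while the means of Cyp26b1 were 0.544 and 0.535 CPM per kb with and without FGF2.

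Crabp1, a cytosolic protein that binds retinoic acid, had the lowest adjusted p-value of the 6 tested genes. Its log2 fold change was the largest in size with all libraries, but not without replicate 2 with FGF2, where Aldh1a1 was at -1.70, Aldh1a3 at -1.41 and Crabp1 at -1.29. It lies on chromosome 9 from 54764748 to 54773110 and had 58 and 43 counts with FGF2 and 170 and 164 counts without FGF2. In CPM these are 6.39 and 4.37 with FGF2 and 16.2 and 15.1 without FGF2. The groups are well separated, and the distance between them exceeds the spread within either group. The mean was 5.38 ± 1.43 CPM with FGF2 and 15.7 ± 0.730 CPM without FGF2 (SD, n = 2), 2.92-fold higher without FGF2 (log2 fold change -1.55, standard error 0.20, edgeR adjusted p = 4.7e-14). With DESeq2 the adjusted p-value was 6.6e-06, and leaving out any 1 library gave log2 fold changes from -1.84 to -1.29.

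Crabp2, which hands retinoic acid to its receptors, lies on chromosome 3 from 87948666 to 87953376 and had 3 and 6 counts with FGF2 and 13 and 6 counts without FGF2. The groups touch at 6 counts, and the test without a filter gave a log2 fold change of -0.89 with a standard error of 0.78 (edgeR adjusted p = 0.532). Of Crabp1 and Crabp2, Crabp1 had the higher RNA level per kb in all libraries. The log2 ratio of Crabp2 to Crabp1 per kb was -4.99 and -3.56 with FGF2 and -4.43 and -5.49 without FGF2. These ratios overlap between the groups. Rbp4, the carrier of retinol in blood, on chromosome 19 from 38116629 to 38125281, was at 3 and 3 counts with FGF2 and 7 and 2 counts without FGF2, near the limit of what these libraries can show.

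Neither receptor of the list passed the test. Rara, on chromosome 11 from 98927818 to 98974942, had 16.6 and 14.6 CPM with FGF2 and 14.2 and 14.0 CPM without FGF2. Both libraries with FGF2 were slightly above, as for 33.6% of all tested genes, but the log2 fold change of 0.15 did not pass (95% interval -0.16 to 0.45, edgeR adjusted p = 0.492). Rarb, on chromosome 14 from 16430839 to 16819156, had 19.0 and 20.7 CPM with FGF2 and 19.4 and 19.6 CPM without FGF2, so that the libraries without FGF2 lay between those with FGF2. The log2 fold change of Rarb was 0.03 (95% interval -0.24 to 0.29, edgeR adjusted p = 0.903). Rarb is the gene whose promoter repeat is shown above. Its count covers all 7 annotated transcripts, and the gene extends upstream of that promoter to base 16819156. Transcripts that start at the shown promoter were therefore not measured apart from the others.

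Rarb shares 1433 exonic bases with Top2b on the opposite strand, which had 1800 to 2184 counts per library against 172 to 212 for Rarb. A read that fits 2 genes is not counted, and by the values this held only within a strand. Of 422 genes that a gene of the same strand covers for at least 98% of their exons, 1 had any count, whereas 86 of 283 did where the covering gene lay on the opposite strand. This describes how reads were counted, not how well the libraries kept the strand. Whether reads of Top2b entered the count of Rarb was not tested. Per kb, the level of Rarb was above that of Rara without FGF2, at 3.70 ± 0.022 and 3.23 ± 0.023 CPM per kb (SD, n = 2). With FGF2 the libraries of both genes overlapped, at 3.77 ± 0.240 and 3.58 ± 0.324 CPM per kb. This overlap depends on the length used. With FGF2 the log2 ratio of Rarb to Rara was -0.083 and 0.23 per kb of exonic length. With the longest transcript as length it was 0.31 and 0.63, so Rarb was then above Rara in both libraries with FGF2.

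Ordered by level per kb without FGF2, Crabp1 came first at 19.5 CPM per kb, followed by Rarb, Rara and Aldh1a3 at 1.15 CPM per kb, each apart from the next. Crabp2, Cyp26b1, Aldh1a2, Rbp4 and Aldh1a1 followed between 0.678 and 0.295 CPM per kb, where the libraries of each neighbour in the order overlapped. The last place of Aldh1a1 depends on the length used. With the longest transcript as length, Aldh1a1 made up 25.4% and 22.1% of the Aldh1a sum without FGF2. Aldh1a2 then made up 20.3% and 13.1%, so Aldh1a1 was above Aldh1a2 in both of these libraries. With FGF2, Crabp1 was still first at 6.71 CPM per kb, but Aldh1a3 at 0.567 CPM per kb was no longer apart from Cyp26b1 at 0.544 CPM per kb.

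The other genes of the pathway were described with 3 further lists. Of all tested genes, 20.7% were higher and 19.9% lower with FGF2. Among 26 genes of retinoid uptake, storage and metabolism, 16 were tested, of which 5 rose and 4 fell with FGF2, with a median log2 fold change of 0.15. With DESeq2 2 of them rose and 0 fell. The genes that rose included Cyp1b1, a cytochrome P450 that acts on retinoids and steroids, from 16.3 and 17.5 CPM without FGF2 to 78.8 and 90.4 CPM with FGF2. Its log2 fold change was 2.33 (standard error 0.10, edgeR adjusted p = 1.8e-119), and both libraries with FGF2 were more than 60 CPM above both libraries without. Dhrs4, which reduces retinaldehyde, rose by 0.63, and Rdh11, a retinol dehydrogenase, rose by 0.27 on the log2 scale (edgeR adjusted p = 4.3e-04 and 0.013). The calls of Dhrs4 and Rdh11 were lost with DESeq2 (adjusted p = 0.059 and 0.183), that of Dhrs4 also without replicate 2 with FGF2 and that of Rdh11 without replicate 1 with FGF2 or replicate 2 without FGF2.

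Dhrs3, which turns retinaldehyde back into retinol and is known as a target of retinoic acid, fell by 0.45, and Rdh13 fell by 0.32 on the log2 scale (edgeR adjusted p = 0.039 and 0.031). Both calls were lost with DESeq2 (adjusted p = 0.312 and 0.258), without the expression filter, and without replicate 2 of either group, and that of Rdh13 also without replicate 1 without FGF2. Ttr, the plasma partner of Rbp4, and Rbp2, a retinol-binding protein of the gut, passed with log2 fold changes of -1.96 and -1.72, but on 0 to 17 counts, and like Aldh1a1 they entered the test only through the cultures without FGF2. The call of Rbp2 was lost with DESeq2 and without any 1 of the 4 libraries, and that of Ttr without any 1 library other than replicate 2 with FGF2. Ttr was at -6.70 without that replicate and at -1.04 without replicate 1 with FGF2. DESeq2 gave Ttr no adjusted p. Rdh10, which makes the retinaldehyde for the Aldh1a enzymes, was at 17.9 and 14.3 CPM with FGF2 and 20.0 and 18.3 CPM without FGF2, a log2 fold change of -0.25 that did not pass (edgeR adjusted p = 0.155) but passed without replicate 1 with FGF2 (-0.42, edgeR adjusted p = 0.043). Rdh14 was at 0.15 (edgeR adjusted p = 0.599). Dhrs9 and Adh1 had 0 counts in all libraries.

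Among 15 other receptors, partners and cofactors, all tested, 2 rose and 6 fell, with a median of -0.10. The shares over all tested genes were 20.7% higher and 19.9% lower. Rarg, the remaining retinoic acid receptor, had 26.1 and 30.5 CPM with FGF2 and 14.5 and 11.9 CPM without FGF2. Each library with FGF2 was above each without, and the log2 fold change was 1.10 (standard error 0.14, edgeR adjusted p = 8.8e-15). Rxrg, an RXR of striatal neurons and the oligodendrocyte lineage, went the other way, with 6.17 and 6.81 CPM with FGF2 and 11.7 and 12.1 CPM without FGF2 (log2 fold change -0.87, standard error 0.20, edgeR adjusted p = 8.8e-05).

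Rxra and Rxrb had log2 fold changes of -0.17 and 0.23 and did not pass (edgeR adjusted p = 0.266 and 0.101), although Rxrb passed without replicate 2 with FGF2 (0.36, edgeR adjusted p = 0.020). As Rara and Rarb were at nearly the same level in both groups, the share of Rarg in the summed level of the 3 RAR genes per kb was 45.3% and 49.5% with FGF2 and 32.9% and 28.7% without FGF2. The summed level of the 3 RAR genes was 61.7 and 65.9 CPM with FGF2 and 48.1 and 45.5 CPM without FGF2. This share and this sum were chosen after the values had been seen and carry no test.

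The corepressor Ncor1, which silences unliganded receptors, had a log2 fold change of 0.08 and did not pass (edgeR adjusted p = 0.085). Fabp5, which can carry retinoic acid to Ppard, fell by 0.42, and the orphan receptors Nr2f1 and Nr2f2 fell by 0.37 and 0.51 on the log2 scale (edgeR adjusted p = 1.2e-05, 2.1e-04 and 0.0090). The call of Nr2f2 was lost with DESeq2 (adjusted p = 0.178), without replicate 1 with FGF2 and without replicate 2 without FGF2. The coregulator Nrip1, a known target of retinoic acid, rose by 0.22 on the log2 scale (edgeR adjusted p = 3.4e-04), and this call was lost without replicate 1 without FGF2 (edgeR adjusted p = 0.057).

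Of 16 genes known to respond to retinoic acid, 10 were tested. They went both ways, with 5 higher, 3 lower and a median of 0.48, against 20.7% higher and 19.9% lower among all tested genes. Tgm2, a transglutaminase, rose from 6.66 and 6.00 CPM without FGF2 to 16.6 and 16.9 CPM with FGF2, a log2 fold change of 1.40 (standard error 0.18, edgeR adjusted p = 4.4e-13). Rai14 rose by 0.54 and the receptor Gprc5b rose by 0.52, whereas Ret, the receptor of GDNF ligands, fell by 1.10 and the homeobox gene Meis2 fell by 0.32 on the log2 scale (edgeR adjusted p = 1.0e-04, 1.4e-27, 0.0019 and 1.1e-16). Rai1 fell by 0.20 on the log2 scale (edgeR adjusted p = 0.0036), and the calls of Ret and Rai1 were lost with DESeq2 (adjusted p = 0.081 and 0.078), that of Rai1 also without replicate 1 without FGF2. Rarres2 and Gprc5c were at -0.23 and 0.53 and did not pass (edgeR adjusted p = 0.343 and 0.268). Rarres1 rose by 1.73 on 4 to 18 counts per library (edgeR adjusted p = 0.018). It entered the test only through the cultures with FGF2, and this call was lost with DESeq2 and without any 1 of the 4 libraries. Hoxa2, Hoxb1, Cdx1 and Stra8, which retinoic acid induces in other embryonic tissues, had 0 counts in all libraries. Each of the 3 lists held genes that rose and genes that fell.

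**Figure D3:**
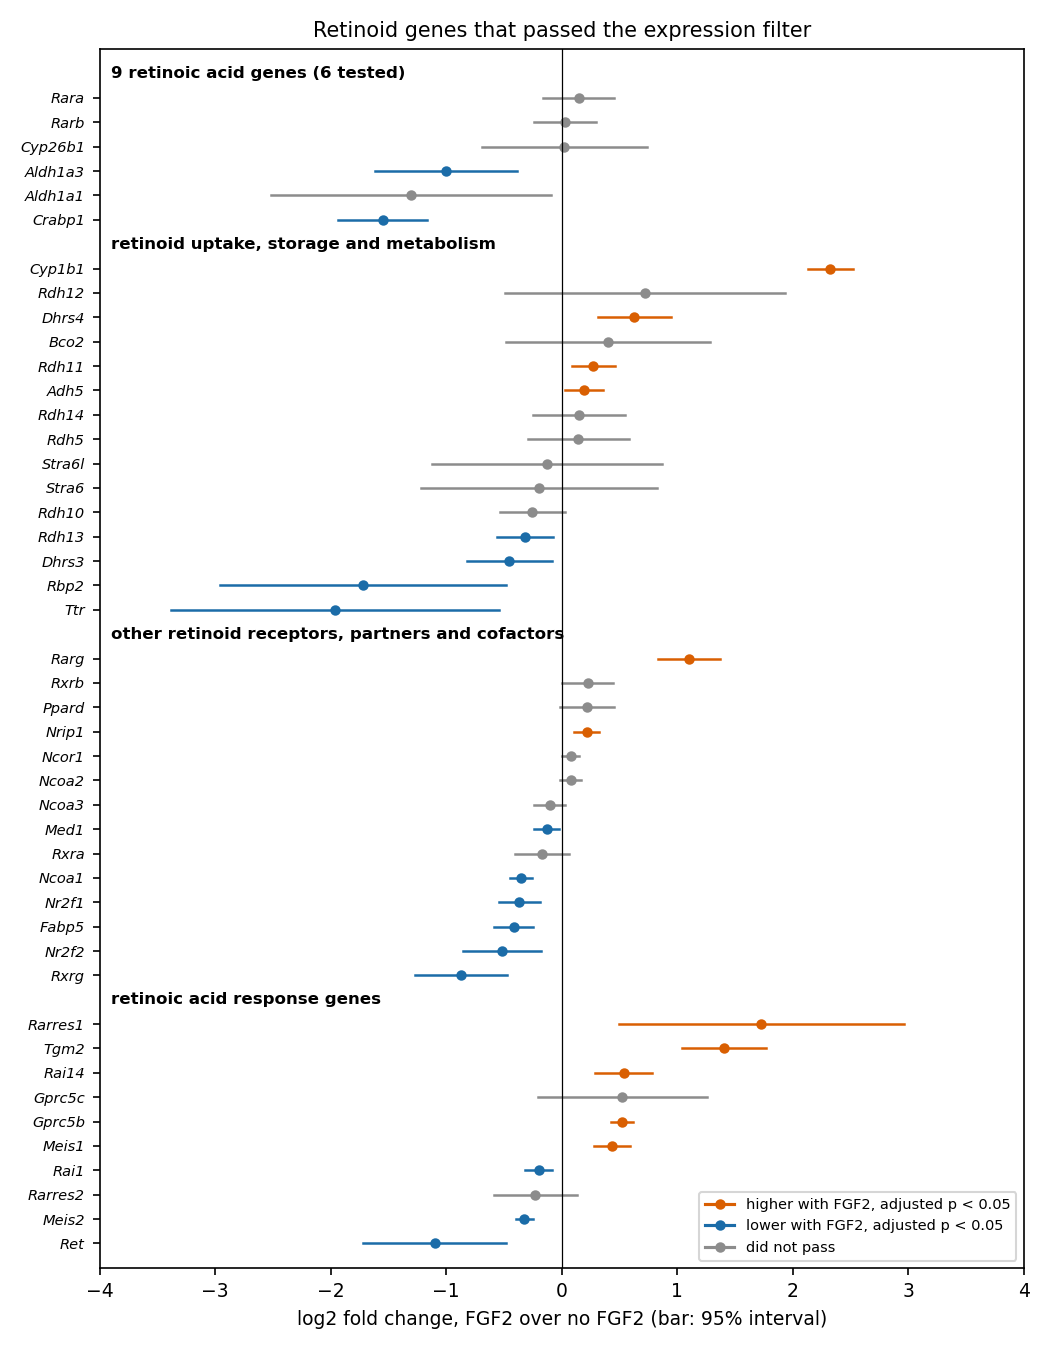
Log2 fold change (FGF2 over no FGF2) with its 95% interval for the 6 tested genes of the 9 and for the tested and reported genes of the 3 further retinoid lists, coloured where the adjusted p-value was below 0.05. Crabp1 and Aldh1a3 lie left of 0, Rara, Rarb and Cyp26b1 lie at 0.15, 0.03 and 0.02, and Rarg and Cyp1b1 lie furthest right in their lists at 1.10 and 2.33.

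Markers of several cell types moved with the groups, where 20.7% of all tested genes were higher and 19.9% lower with FGF2. Of 10 pan-neuronal markers 8 fell and 1 rose, with a median log2 fold change of -0.46 and a summed level of 3542 and 3682 CPM with FGF2 against 5202 and 5175 CPM without FGF2. Of 11 interneuron markers 11 fell, with a median of -0.72 and sums of 786 and 785 CPM against 1371 and 1414 CPM. Of 10 tested markers of striatal neurons and the lateral ganglionic eminence, the tissue in which Aldh1a3 is known, 8 fell and 1 (Rgs9) rose, with a median of -0.96 and sums of 133 and 116 CPM against 163 and 153 CPM. Among the 8 that fell, 1 had 3 and 1 counts with FGF2 and entered the test only through the cultures without FGF2. Rgs9 alone gave 64.5 and 56.4 CPM of the striatal sums with FGF2 and 37.7 and 37.8 CPM without FGF2. In contrast, 8 of 9 tested astrocyte markers and 9 of 9 tested oligodendrocyte lineage markers rose, with medians of 0.42 and 1.17 and sums of 12708 and 12578 against 7727 and 7679 CPM and of 1596 and 1618 against 496 and 511 CPM.

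Gfap, the intermediate filament of astrocytes, rose by 1.06, and the myelin gene Mbp rose by 2.18 on the log2 scale. Of 6 tested microglial markers 4 rose (sums 39.2 and 43.1 against 25.3 and 25.7 CPM). The meningeal fibroblast and mural markers, with 2 of 9 higher and 3 lower, had sums of 90.1 and 86.5 CPM with FGF2 and 89.3 and 88.9 CPM without FGF2. Within that list Pdgfrb rose by 0.73 and Zic1 fell by 0.70 on the log2 scale, while the collagen gene Col1a1 of fibroblasts was at 1.54 and 2.03 CPM with FGF2 and 8.76 and 7.67 CPM without FGF2, and Lum had at most 4 counts. The part of meningeal cells in the level of Aldh1a2 was not tested. Of 4 tested endothelial markers 2 rose (sums 49.9 and 49.9 against 37.8 and 40.5 CPM) and 1, Kdr, fell by 0.95 on the log2 scale, and Cldn5 had 0 counts in all libraries. The call of Kdr was lost with the replicate number as a block (edgeR adjusted p = 0.056), with DESeq2 (adjusted p = 0.314), without the expression filter, and without replicate 1 with FGF2 (-0.69) or replicate 2 without FGF2 (-0.44). Of 7 tested choroid plexus and ependymal markers 1 rose and 3 fell (sums 194 and 174 against 193 and 194 CPM). Rsph1 and Ccdc153 of ependymal cilia were at -0.58 and -1.09. The marker that rose had 4 and 9 counts without FGF2 and entered the test only through the cultures with FGF2. Foxj1 alone gave 157 and 143 CPM of these sums with FGF2 and 136 and 141 CPM without FGF2, so the sums mostly follow this gene.

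**Figure D4:**
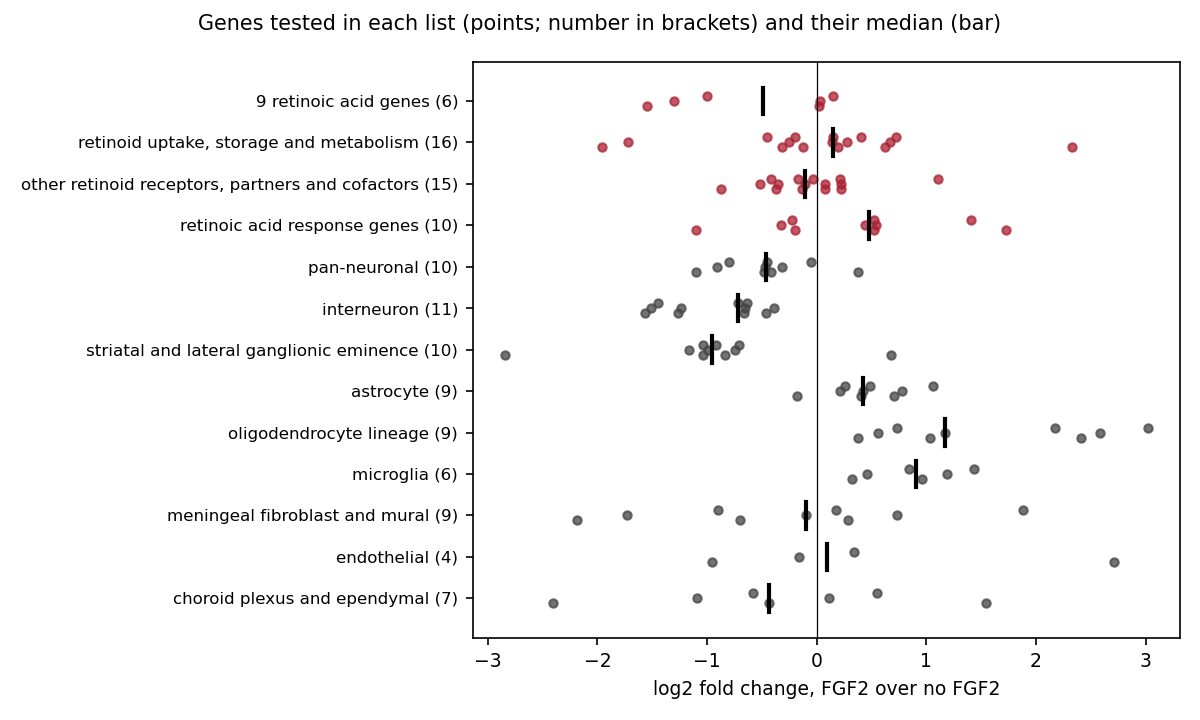
Log2 fold change (FGF2 over no FGF2) of each tested gene in the retinoid lists (red) and the cell type marker lists (grey), with a bar at the median of each list. The neuronal, interneuron and striatal medians lie at -0.46, -0.72 and -0.96, and the astrocyte and oligodendrocyte lineage medians at 0.42 and 1.17.

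Crabp1 and Aldh1a3 were set against these neuronal markers within each library, a step chosen after the values had been seen. Per 1000 CPM of pan-neuronal markers, Crabp1 was at 1.80 and 1.19 CPM with FGF2 and 3.11 and 2.93 CPM without FGF2. Per 1000 CPM of interneuron markers it was at 8.13 and 5.57 CPM with FGF2 and 11.8 and 10.7 CPM without FGF2. Crabp1 was lower in both libraries with FGF2 also relative to the summed interneuron markers, by a ratio of means of 1.64, and relative to the summed pan-neuronal markers by 2.02. These sums are weighted to the markers of highest level. Single interneuron markers had log2 fold changes from -1.57 to -0.39, so the lowest fell as much as Crabp1 at -1.55. Single pan-neuronal markers ranged from -1.10 to 0.38. Aldh1a3 was at 0.560 and 0.884 CPM with FGF2 and at 0.970 and 1.07 CPM without FGF2 per 1000 CPM of pan-neuronal markers, without overlap and with a ratio of means of 1.41. Against interneuron markers Aldh1a3 was at 2.52 and 4.14 CPM with FGF2 and at 3.68 and 3.92 CPM without FGF2, which overlap. Relative to the striatal markers Aldh1a3 was at 14.9 and 27.9 CPM with FGF2 and at 31.0 and 36.3 CPM without FGF2, and Crabp1 at 48.1 and 37.6 CPM against 99.5 and 99.3 CPM. With Rgs9 left out of the striatal sum, Aldh1a3 was at 29.0 and 54.2 CPM with FGF2 and at 40.4 and 48.3 CPM without FGF2, so its groups no longer stood apart. Crabp1 was then at 93.5 and 72.9 CPM with FGF2 and at 129.6 and 131.9 CPM without FGF2, still lower in both libraries with FGF2, and the ratio of means fell from 2.32 to 1.57. These ratios carry no test, and the part of cell composition in the lower levels of Crabp1 and Aldh1a3 was not tested.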

How the data were processed

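RNA was sequenced from 4 mouse PFC culture libraries, 2 with and 2 without FGF2. Per the labels and the paper, the authors mapped reads to mm10 with HISAT2 2.1.0, filtered them on mapping quality and counted read pairs per gene with HTSeq 0.11.2, and the deposited values are raw counts. The annotation release and strand setting are not given in the sources used here. Of 55421 identifiers, 55240 matched GENCODE M21, which gave names, coordinates and lengths. Tallies that name no gene (44.9% to 47.3% of read pairs) were left out. The test was edgeR 4.0.16 (R 4.3.3) with TMM, its expression filter, the quasi-likelihood test and Benjamini-Hochberg adjustment over 17144 genes. It was also run on simulated counts in which far fewer genes were changed than passed here. That run checks the code and not the error rate in these data. Standard errors are the size of the log2 fold change divided by the root of F. The 95% intervals take the t quantile at the degrees of freedom that the fit gave each gene. DESeq2 1.42.0 was an alternative. Similar transcripts were searched with BLAST 2.17.0. Replicates differed by more than counting noise (chi-square per degree of freedom 2.28 with and 1.76 without FGF2). The 9 genes and all lists were chosen with earlier results of these data known. Named were the 9 genes, the Cyp26, RAR and RXR relatives, from each retinoid list up to 4 genes passing in each direction with the largest change and up to 2 others with the highest level, and from each marker list at most 3 of the highest level. Some genes of the lists are counted in the totals but not reported singly here. Genes at 0 or near 0 counts, Top2b, Aldh1a7, Col1a1 and Lum were named after their values were seen. Other alternatives were RLE and total count scaling, no filter, at least 10 counts in every library, a replicate block, each library left out (the lone library of a group is then assumed to vary like the others), and the longest transcript as length.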

Additional observations from a re-analysis of the deposited data

How the results depend on the processing

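Crabp1 kept its direction and its call under every alternative, with log2 fold changes from -1.84 to -1.29 with 1 library left out. Aldh1a3 kept its direction, but with DESeq2 it was at -1.01 and did not pass, and with 1 library left out it ranged from -1.41 to -0.70 and did not pass in 2 of the 4 fits. Aldh1a1, Rara, Rarb and Cyp26b1 passed under no alternative. With 1 library left out Aldh1a1 ranged from -1.70 to -1.02, Rara from 0.05 to 0.24, Rarb from -0.044 to 0.085 and Cyp26b1 from -0.070 to 0.11, so Rarb (-0.044 without replicate 2 with FGF2) and Cyp26b1 (-0.011 without replicate 1 with FGF2, -0.070 without replicate 2 without FGF2) changed sign. With a library left out Rdh14 ranged from -0.033 to 0.36. Aldh1a2 and Crabp2 did not pass the filter with all 4 libraries, and their values come from the fit without it. Aldh1a2 ranged from -0.54 to 0.0061 (above 0 without replicate 2 with FGF2) and Crabp2 from -1.40 to -0.54 in the fits that left out a library and could test them. With DESeq2, 2068 genes were higher and 1939 lower, in place of 3541 and 3408, 1 of the 9 genes was lower, 2 genes of retinoid uptake and metabolism were higher and 0 lower, and 1 response gene was lower. No filter and at least 10 counts in every library each left 2 lower genes in the uptake and metabolism list. With 1 library left out, the number of lower genes among the 9 ranged from 1 to 2, the uptake and metabolism list had 3 to 4 higher and 0 to 3 lower genes, and the list of receptors and cofactors had 1 to 3 higher genes. The cause of these losses was not tested. Leaving Rgs9 out of the striatal marker sum, a choice made after seeing the data, moved Aldh1a3 per 1000 CPM of these markers from 21.4 to 41.6 with FGF2 and from 33.7 to 44.3 without, and Crabp1 from 42.8 to 83.2 and from 99.4 to 131. With the longest transcript as length, Aldh1a1 made up 17.4% and 23.8% of the Aldh1a sum with and without FGF2 in place of 10.9% and 15.7%, the sum was 1.38 and 2.59 CPM per kb, log2 of Rarb over Rara was 0.47 and 0.59 in place of 0.07 and 0.20, and log2 of the Aldh1a sum over Cyp26b1 was 2.03 without FGF2. With the replicate number as a block, the log2 fold changes of Crabp1 and Aldh1a3 were -1.55 and -1.02 and no call among the 9 genes changed. The block changed 1 call among 53 other named genes, that of Kdr. Over these 53 genes the other alternatives gave 261 values, of which 245 kept the direction and the side of the threshold and 16 kept the direction and no longer passed, and leaving out a library gave 212 values, of which 178 kept both, 30 no longer passed, 3 newly passed and 1 changed sign. Aldh1a1 was not tested where each library had to hold at least 10 counts. DESeq2 gave no adjusted p for Ttr, where the fold change alone was compared. The deviations of same-numbered libraries had a correlation of 1.3e-05, so the numbers gave no sign of pairing.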
